A study of Mus musculus with 20 samples.

Results

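The 32 genes described here belong to the unfolded protein response and the integrated stress response, and they were followed in the left ventricular free wall of mice with and without the glucocorticoid receptor in cardiomyocytes. The members were chosen by name, as the rows of the count tables that carry a listed symbol, out of 24059 genes in all. The list was made with earlier results of these data known. Counts of called members beside the share of all genes are therefore descriptions and not tests of the list. They fall by role into 15 chaperones and disulfide isomerases of the endoplasmic reticulum (ER), 7 genes of ER-associated degradation, 4 stress sensors or their transcription factors, and 6 genes of the ATF4 arm. Of the 32 members, 31 passed the filter on low counts and were tested. Derl3, a subunit of the channel that moves misfolded proteins out of the ER, did not pass, with a mean of 0.184 to 0.315 counts per 1000000 reads (CPM) over the 4 groups and 1 to 13 reads in each library.

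The libraries form 4 groups of 5, and the labels number the replicates without naming animals, so p-values measure the spread between these libraries. CardioGRKO mice have the genotype GRfl/fl alphaMHCCre/+, with both alleles of the receptor gene Nr3c1 floxed and a transgene that drives Cre recombinase from the cardiomyocyte promoter of alpha myosin heavy chain. Their controls, GRflox, are GRfl/fl littermates that carry the floxed alleles without Cre, so that receptor loss and the presence of Cre cannot be told apart. All were C57BL/6 males of about 9 to 13 weeks, and hearts were taken at ZT12, the start of lights off, or at ZT0, the start of lights on. The genotype comparisons ask what differed at each time with receptor loss in cardiomyocytes and Cre together. The time comparisons ask what differed between ZT12 and ZT0 within a genotype.

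The ER folds secreted and membrane proteins with the help of chaperones and of isomerases that form disulfide bonds. When unfolded protein builds up, 3 sensors in the ER membrane signal to the nucleus. IRE1 (Ern1) splices the mRNA of the transcription factor XBP1, ATF6 is cut to release a transcription factor, and PERK (Eif2ak3) phosphorylates eIF2alpha, which slows translation in general and favours translation of ATF4. ATF6 and spliced XBP1 are known to raise chaperone and ER-associated degradation genes, several of them through a promoter motif called the ER stress response element. ATF4 raises genes of amino acid supply and also Ddit3, Trib3 and Chac1, and it can be reached by kinases that sense stress outside the ER. In cardiomyocytes ATF6 and XBP1 are known for their part in the response to ischaemia and to pressure load.

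The libraries held 5854462 to 37648421 counted reads each (median 23223656). Replicate 1 of CardioGRKO at ZT0 was the shallowest and has a file number that no other library shares, and the sources used here do not say what the number marks. Nr3c1 was measured over its whole transcript, so the reads do not isolate the deleted part. It had 51.9, 48.6, 51.8, 46.7 and 55.9 CPM in CardioGRKO ventricles at ZT12, against 109, 117, 95.3, 108 and 106 CPM in GRflox ventricles at ZT12. At ZT0 its levels were 51.9, 53.8, 54.5, 54.4 and 61.1 CPM in CardioGRKO ventricles, against 118, 122, 106, 113 and 115 CPM in GRflox ventricles. Every CardioGRKO library lay below every GRflox library of the same time, and Nr3c1 fell by 1.08 log2 units at ZT12 and by 1.06 at ZT0 (SE 0.06 each, edgeR adjusted p = 5.17e-12 and 2.04e-11). In bulk tissue, fewer cells of a type and less RNA per cell cannot be told apart. The tissue label was matched by its markers: 6 cardiomyocyte genes, among them the myosin heavy chain Myh6 and titin, summed to between 75800 and 96300 CPM in the 20 libraries.

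Per kilobase of exon, Calr, which encodes the calcium-binding chaperone calreticulin, was the most abundant of the 32 members, at 187 CPM per kb over all libraries. P4hb, a disulfide isomerase, followed at 127, Hspa5, the central ER chaperone BiP, at 119, Herpud1, a membrane protein of ER-associated degradation, at 107, and Hsp90b1, the chaperone GRP94, at 106 CPM per kb. The most abundant gene of the ATF4 arm was Atf4 itself, at 41.4 CPM per kb. Ppp1r15a, which encodes the GADD34 subunit that reverses eIF2alpha phosphorylation, had 12.8, and Ddit3, which encodes the transcription factor CHOP, had 10.1 CPM per kb. Chac1, an enzyme that degrades glutathione, had 2.1, Trib3, a pseudokinase, 1.04, and Asns, asparagine synthetase, 0.931 CPM per kb. The lowest of the 15 chaperones and isomerases was Sdf2l1, a small BiP cofactor, at 3.57 CPM per kb.

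Most chaperones and isomerases fell at ZT12, relative to ZT0, in both genotypes. In CardioGRKO ventricles 12 of the 15 fell at ZT12 and none rose, where 9.17% of all genes tested were called, 4.42% higher and 4.75% lower. In GRflox ventricles 11 of the 15 fell and none rose, where 17.3% of all genes were called, 8.13% higher and 9.17% lower. The median log2 difference of the 15 genes was -0.30 in CardioGRKO and -0.41 in GRflox ventricles, against medians over all genes of 0.002 and 0.008. The same 11 genes were lower in both genotypes, Hspa5, Hsp90b1, Calr, Canx, Hyou1, Dnajc3, Manf, Creld2, Pdia3, Pdia4 and Pdia6, where 3.77% of all genes were lower in both. The CardioGRKO and GRflox time comparisons share no library in their group means. Their p-values are not fully separate, because both use a spread estimated from all 20 libraries.

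The ER stress response element, to which ATF6 with the factor NF-Y is known to bind, was looked for by its letters in promoter windows of 300 bases, 250 before and 50 after the start of each gene (RefSeq, GRCm38.p6). It was searched on both strands as CCAAT, 9 bases of any kind, then CCACG. Of the 32 members 28 had a window, and 9 of these held the element, where 0.137% of 27025 genes with a window did. The members were listed as genes of this response, some already known to be raised through the element, so that excess is not a result of these data. The matches of the 8 of these 9 members that were tested are shown, with the fixed letters in capitals and written along the strand of the element, because 7 of these 8 fell at ZT12 in both genotypes. The distance from the first base of the element, along the gene, to the start of the gene was 65 bases in Hspa5, 212 and 107 in Hsp90b1, 162 in Calr, 145 in Canx, 105 in Dnajc3, 126 in Creld2, 98 in Pdia6 and 44 in Syvn1.
Hspa5 (chr2:34772025-34772043): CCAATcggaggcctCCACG
Calr (chr8:84847075-84847093): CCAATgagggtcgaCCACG
Hsp90b1 site at 212 (chr10:86705638-86705656): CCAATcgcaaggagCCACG
Hsp90b1 site at 107 (chr10:86705533-86705551): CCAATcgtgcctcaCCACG
Canx (chr11:50325800-50325818): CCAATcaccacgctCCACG
Pdia6 (chr12:17266491-17266509): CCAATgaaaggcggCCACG
Dnajc3 (chr14:118937827-118937845): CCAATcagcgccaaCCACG
Creld2 (chr15:88819520-88819538): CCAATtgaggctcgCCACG
Syvn1 (chr19:6046532-6046550): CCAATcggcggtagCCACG

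Of the 8 tested members with the element, 7 fell at ZT12 in CardioGRKO and 8 in GRflox ventricles, where 4.75% and 9.17% of all genes were lower. Their median log2 differences were -0.29 and -0.37. Of the 19 tested members that had a window without it, 4 fell in CardioGRKO and 3 in GRflox ventricles, with medians of -0.02 and -0.03. This split largely repeats the roles, since 7 of the 8 are chaperones or isomerases and the 19 hold all 6 genes of the ATF4 arm. Among the chaperones and isomerases without the element, 3 of 6 fell in CardioGRKO and 2 of 6 in GRflox ventricles. Pdia3, Pdia4 and Xbp1 fell in both genotypes without the element in their windows, and Manf, Atf6, Derl1 and Hyou1 had no window. Such matches are letters in a window and do not show that a factor was bound. A shorter form, ATTGG, 1 base, then CCACG, was found in Herpud1 and Dnajb11 and in 0.0444% of genes. The XBP1 core TGACGTGG (0.714% of genes), the ATF4 composite site searched as TGATG, 1 base, AAT (1.08% of genes) and a glucocorticoid response element searched as AGAACA, 3 bases, TGTTCT (0.0111% of genes) were in no member's window. The E-box CACGTG was in the windows of Calr, Dnajb9 and Derl3 and of 8.09% of genes. None of the matches in members overlapped another. The motifs found in no member's window are too rare by exact letters for 28 members to show that such sites are lacking. Sites with other letters or outside the windows were not searched.

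The windows of Hspa5 and Dnajc3, which fell with time, of P4hb, which rose in CardioGRKO ventricles and held none of these motifs, and of Herpud1, which was chosen after its values were seen, are given along the gene with the matched letters in capitals. Windows of other members are not shown, among them that of Pdia4, which fell in both genotypes without the element.
Hspa5 (chr2:34771840-34772139, plus strand): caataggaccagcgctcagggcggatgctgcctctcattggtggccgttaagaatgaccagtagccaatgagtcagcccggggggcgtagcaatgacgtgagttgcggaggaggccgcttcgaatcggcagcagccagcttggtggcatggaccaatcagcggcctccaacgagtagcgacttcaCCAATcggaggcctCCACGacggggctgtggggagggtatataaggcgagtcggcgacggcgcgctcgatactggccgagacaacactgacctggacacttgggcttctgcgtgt
Dnajc3 (chr14:118937682-118937981, plus strand): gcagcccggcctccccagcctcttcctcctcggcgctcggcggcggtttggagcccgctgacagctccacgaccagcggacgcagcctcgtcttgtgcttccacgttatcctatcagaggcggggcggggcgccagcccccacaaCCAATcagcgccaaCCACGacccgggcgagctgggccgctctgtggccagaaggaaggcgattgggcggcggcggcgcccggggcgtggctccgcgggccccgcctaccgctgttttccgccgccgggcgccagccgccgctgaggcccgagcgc
P4hb (chr11:120573204-120573503, minus strand): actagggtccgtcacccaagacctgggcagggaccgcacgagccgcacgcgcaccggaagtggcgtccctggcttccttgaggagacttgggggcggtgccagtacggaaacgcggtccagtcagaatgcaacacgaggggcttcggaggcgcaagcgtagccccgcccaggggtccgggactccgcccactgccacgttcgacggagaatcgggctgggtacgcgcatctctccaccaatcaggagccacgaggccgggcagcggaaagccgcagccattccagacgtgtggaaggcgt
Herpud1 (chr8:94386179-94386478, plus strand): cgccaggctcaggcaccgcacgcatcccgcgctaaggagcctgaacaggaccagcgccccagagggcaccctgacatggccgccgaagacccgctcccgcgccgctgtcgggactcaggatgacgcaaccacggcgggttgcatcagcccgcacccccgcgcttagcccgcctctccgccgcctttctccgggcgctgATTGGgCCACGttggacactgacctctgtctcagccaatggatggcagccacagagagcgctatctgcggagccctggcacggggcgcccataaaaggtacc

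Hspa5 lies on the plus strand of chromosome 2 (chr2:34772090-34776529, GRCm38.p6), and its span overlaps that of Rabepk. It had 369, 430, 468, 398 and 375 CPM in CardioGRKO ventricles at ZT12, against 521, 623, 624, 564 and 624 CPM at ZT0. In GRflox ventricles its levels were 482, 391, 373, 416 and 362 CPM at ZT12, against 538, 728, 696, 515 and 578 CPM at ZT0. In each genotype all 5 ZT12 libraries lay below all 5 ZT0 libraries. Hspa5 fell by 0.54 log2 units in CardioGRKO (SE 0.09, adjusted p = 0.000415) and by 0.59 in GRflox ventricles (SE 0.09, adjusted p = 6.12e-05).

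Hyou1, a large chaperone that helps BiP exchange nucleotide, had 56.1, 56.9, 61.8, 61.7 and 51.1 CPM in CardioGRKO ventricles at ZT12, against 76.2, 89.2, 87.6, 89.9 and 85.0 CPM at ZT0. GRflox ventricles had 57.1, 53.7, 54.3, 59.4 and 47.4 CPM at ZT12, against 76.6, 101, 107, 81.1 and 80.4 CPM at ZT0. The ZT12 and ZT0 libraries did not overlap in either genotype, and the falls were 0.58 log2 units in CardioGRKO (SE 0.08, adjusted p = 4.68e-05) and 0.72 in GRflox ventricles (SE 0.08, adjusted p = 1.01e-06). Manf, a secreted ER stress factor, gave the largest called fall of the 15 in GRflox ventricles. Its levels were 23.4, 20.7, 23.1, 27.4 and 16.4 CPM in CardioGRKO ventricles at ZT12, against 28.8, 44.2, 40.9, 40.9 and 37.9 CPM at ZT0. GRflox ventricles had 24.4, 22.1, 20.1, 23.9 and 19.5 CPM of Manf at ZT12, against 36.6, 57.7, 55.5, 34.4 and 38.5 CPM at ZT0. No ZT12 library reached a ZT0 library of its genotype, and Manf was 1.75-fold lower at ZT12 in CardioGRKO (adjusted p = 0.000435) and 2.04-fold lower in GRflox ventricles (adjusted p = 1.18e-05).

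**Figure D1:**
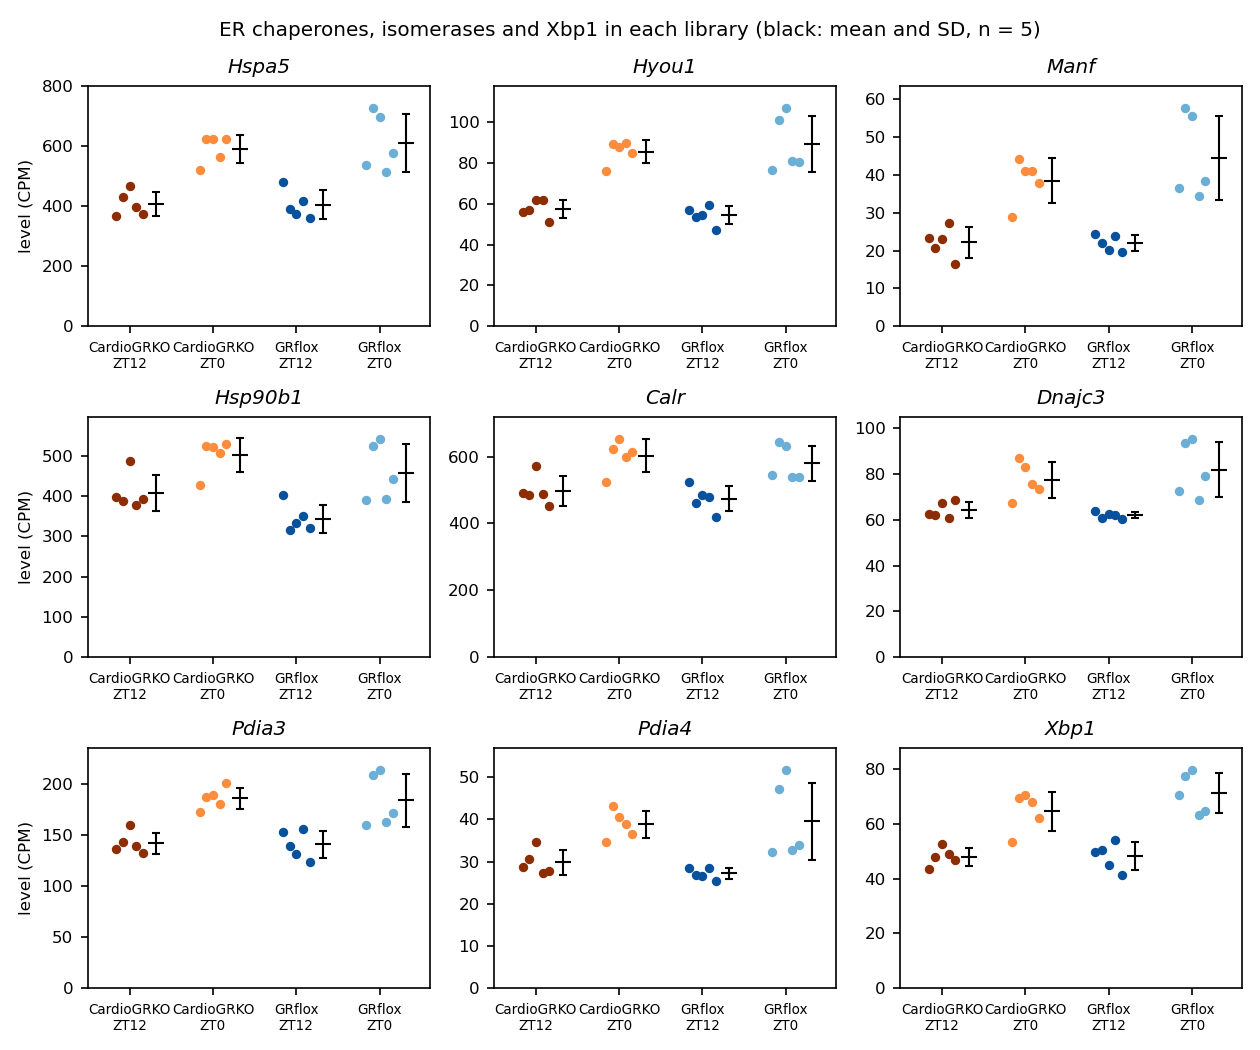
Levels of 8 chaperones and isomerases and of Xbp1 in CPM (vertical axes, from 0) in each of the 20 libraries, by group; black marks give the mean and SD of 5 libraries. Hspa5, Hyou1, Manf, Pdia3, Pdia4 and Xbp1 have no ZT12 library as high as the lowest ZT0 library of the same genotype, and replicates 2 and 3 of GRflox at ZT0 stand above the other ZT0 libraries of GRflox in every panel. For Pdia4 in CardioGRKO ventricles the highest ZT12 and the lowest ZT0 library both round to 34.7 CPM.

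Dnajc3, which encodes the BiP cochaperone P58IPK, had 62.3, 62.0, 67.4, 60.6 and 68.7 CPM in CardioGRKO ventricles at ZT12, against 67.3, 86.9, 82.9, 75.5 and 73.5 CPM at ZT0. GRflox ventricles had 63.7, 60.9, 62.5, 62.1 and 60.3 CPM at ZT12, against 72.4, 93.3, 95.2, 68.7 and 79.1 CPM at ZT0. The GRflox groups did not overlap, while 2 CardioGRKO libraries at ZT12 were above the lowest at ZT0. The fall was 0.28 log2 units in CardioGRKO (SE 0.08, adjusted p = 0.0238) and 0.41 in GRflox ventricles (SE 0.08, adjusted p = 0.000547). Hsp90b1 averaged 408 ± 44.0 CPM at ZT12 and 502 ± 43.0 CPM at ZT0 in CardioGRKO ventricles (SD, n = 5 each). In GRflox ventricles it averaged 344 ± 34.9 CPM at ZT12 and 458 ± 72.2 CPM at ZT0. Its groups overlapped in both genotypes, and the falls were 0.30 log2 units in CardioGRKO (SE 0.09, adjusted p = 0.0405) and 0.41 in GRflox ventricles (SE 0.09, adjusted p = 0.00249). The CardioGRKO call of Hsp90b1 held in 18 of 26 alternative runs.

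The lectin chaperones of the calnexin cycle, which hold newly made glycoproteins, fell in both genotypes. Calr averaged 497 ± 45.3 CPM at ZT12 and 603 ± 49.0 CPM at ZT0 in CardioGRKO ventricles, and 474 ± 37.3 CPM at ZT12 and 580 ± 53.0 CPM at ZT0 in GRflox ventricles. Canx averaged 310 ± 15.7 CPM at ZT12 and 348 ± 17.6 CPM at ZT0 in CardioGRKO ventricles, and 311 ± 18.4 CPM at ZT12 and 349 ± 22.5 CPM at ZT0 in GRflox ventricles. The fall of Calr was 0.28 log2 units in CardioGRKO (adjusted p = 0.0133) and 0.29 in GRflox ventricles (adjusted p = 0.00529), and that of Canx was 0.17 in each (adjusted p = 0.0425 and 0.0237). The call of Canx held in 18 of 26 alternatives in CardioGRKO and in 21 of 26 in GRflox ventricles. Creld2, a secreted ER protein, fell by 0.47 log2 units in CardioGRKO (SE 0.13, adjusted p = 0.0218) and by 0.41 in GRflox ventricles (SE 0.13, adjusted p = 0.029). Without replicate 3 of GRflox at ZT0 the GRflox difference of Creld2 was -0.25 and was not called (adjusted p = 0.129), and the call was lost in 8 of 26 alternatives. Sdf2l1 averaged 2.78 ± 0.832 CPM at ZT12 and 5.1 ± 1.64 CPM at ZT0 in CardioGRKO ventricles and fell by 0.93 log2 units (SE 0.27, adjusted p = 0.0299). In GRflox ventricles it averaged 3.03 ± 0.868 CPM at ZT12 and 4.9 ± 2.3 CPM at ZT0, a log2 difference of -0.73 (SE 0.27) that missed the threshold (adjusted p = 0.0678).

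Of the 4 disulfide isomerases, Pdia3, Pdia4 and Pdia6 fell at ZT12 in both genotypes and P4hb did not. Pdia3, which works with calnexin and calreticulin, had 136, 143, 160, 139 and 133 CPM in CardioGRKO ventricles at ZT12, against 173, 187, 189, 181 and 201 CPM at ZT0. GRflox ventricles had 153, 139, 132, 156 and 124 CPM of Pdia3 at ZT12, against 160, 209, 214, 163 and 172 CPM at ZT0. The groups did not overlap in either genotype, and the falls were 0.39 log2 units in CardioGRKO (SE 0.08, adjusted p = 0.00183) and 0.38 in GRflox ventricles (SE 0.08, adjusted p = 0.00111). Pdia4 fell by 0.39 log2 units in CardioGRKO (SE 0.11, adjusted p = 0.0228) and by 0.55 in GRflox ventricles (SE 0.11, adjusted p = 0.000835), also without overlap. In CardioGRKO ventricles that gap was within rounding. The highest ZT12 library and the lowest ZT0 library, the shallowest of all, both had 34.7 CPM of Pdia4. Pdia6 fell by 0.30 log2 units in CardioGRKO (SE 0.07, adjusted p = 0.00802) and by 0.33 in GRflox ventricles (SE 0.07, adjusted p = 0.00216). For P4hb the log2 difference was 0.04 in each genotype (SE 0.05, 95% interval -0.06 to 0.13, adjusted p = 0.703 in CardioGRKO and 0.633 in GRflox). Dnajb9 and Dnajb11, J-domain cochaperones of BiP, also passed no time test. Their log2 differences were -0.06 (SE 0.06) and -0.09 (SE 0.06) in CardioGRKO ventricles, and 0.02 (SE 0.06) and -0.11 (SE 0.06) in GRflox ventricles.

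No difference in the time effect between the genotypes was called for any of the 15 chaperones and isomerases in the interaction test, in which 0.186% of all genes were called. Their interaction values ran from -0.21 to 0.22 log2 units, with a median of 0.01. For Hspa5 the difference of the time effects was 0.06 log2 units (95% interval -0.20 to 0.32), and for Manf it was 0.22 (95% interval -0.17 to 0.60).

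Without overlap between ZT12 and ZT0 libraries, 6 of the 15 were lower in CardioGRKO and 7 in GRflox ventricles, against 3.61% and 6.57% of all genes. Single libraries carried part of the spread. Replicates 2 and 3 of GRflox at ZT0 were the 2 highest of their group in 12 of the 15 genes, and replicate 1 of CardioGRKO at ZT0 was the lowest of its group in 12. Without that CardioGRKO library, the shallowest, 14 members were called by time in CardioGRKO ventricles, as with it. Without replicate 2 of CardioGRKO at ZT0, 8 were called, and Hsp90b1, Canx, Dnajc3, Sdf2l1, Creld2 and Pdia4 missed the threshold. In GRflox ventricles 15 members were called by time, 13 without replicate 2 of GRflox at ZT0 and 14 without replicate 3.

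**Figure D2:**
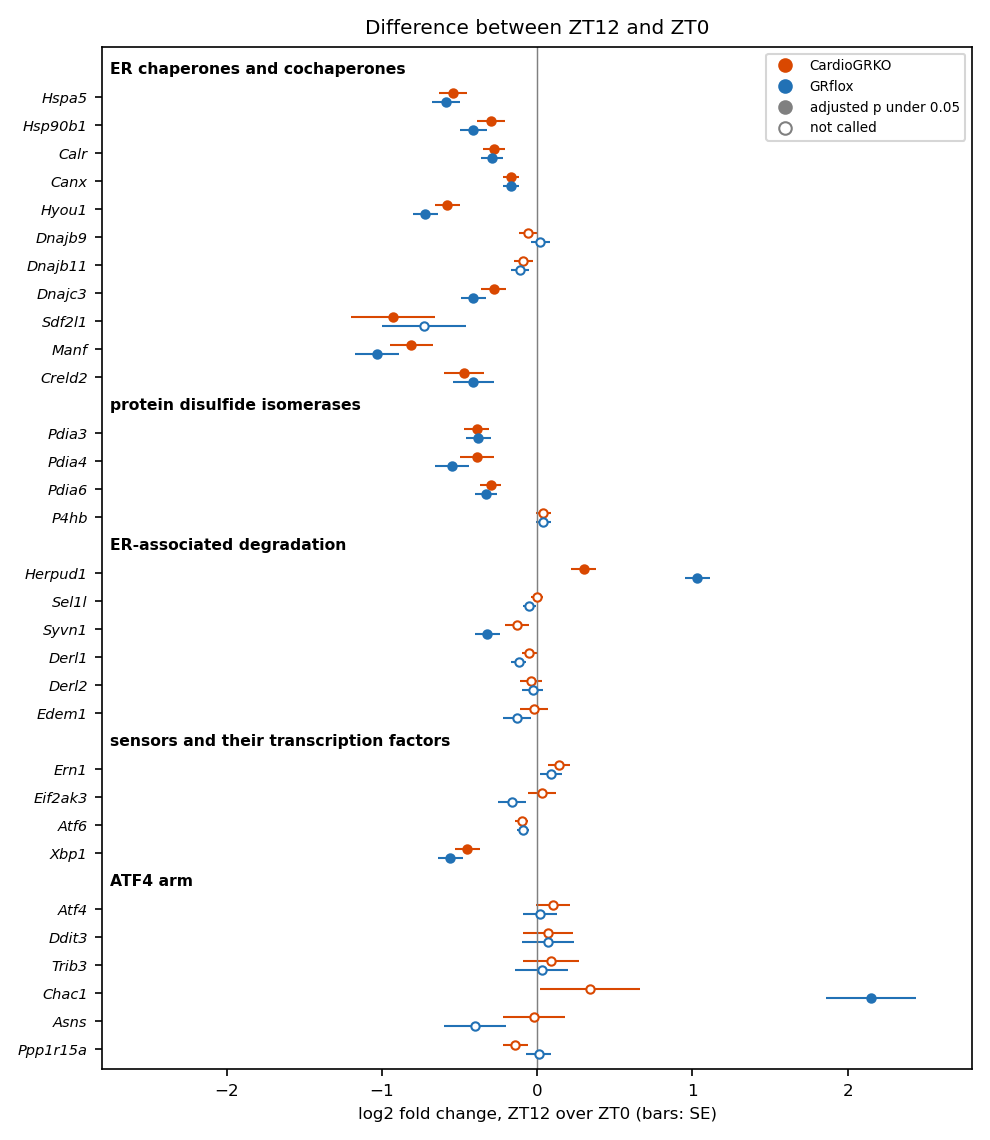
Log2 fold change of ZT12 over ZT0 for the 31 tested members (horizontal axis), in CardioGRKO (orange, upper point of each pair) and GRflox ventricles (blue); bars are standard errors and filled points have an edgeR adjusted p under 0.05. Most chaperones and isomerases lie left of 0 in both genotypes, the ATF4 arm lies between -0.14 and 0.34 in CardioGRKO and between -0.40 (Asns) and 2.15 (Chac1) in GRflox ventricles, and Herpud1 lies right of 0.

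Among the sensors and their transcription factors, Xbp1 alone passed a time test. Xbp1 had 43.6, 47.8, 52.5, 48.9 and 46.7 CPM in CardioGRKO ventricles at ZT12, against 53.2, 69.3, 70.6, 67.9 and 62.0 CPM at ZT0. The GRflox libraries had 49.9, 50.5, 45.1, 54.2 and 41.3 CPM at ZT12, against 70.7, 77.4, 79.7, 63.3 and 64.8 CPM at ZT0. The groups did not overlap, and Xbp1 fell by 0.45 log2 units in CardioGRKO (SE 0.08, adjusted p = 0.000608) and by 0.56 in GRflox ventricles (SE 0.08, adjusted p = 1.71e-05). The counts sum spliced and unspliced Xbp1 mRNA, so the splicing by IRE1 was not measured. The log2 differences of Ern1, Eif2ak3 and Atf6 were 0.14, 0.03 and -0.10 in CardioGRKO ventricles (SE 0.07, 0.09 and 0.04) and 0.09, -0.16 and -0.09 in GRflox ventricles (SE 0.07, 0.09 and 0.04), with adjusted p of at least 0.166.

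In CardioGRKO ventricles none of the 6 genes of the ATF4 arm passed the time test, where 9.17% of all genes were called. In GRflox ventricles 1 of the 6 did, Chac1, which rose, where 17.3% of all genes were called. For a group of 6 genes these counts are near the background. Atf4 mRNA differed by 0.10 log2 units between ZT12 and ZT0 in CardioGRKO (95% interval -0.13 to 0.32) and by 0.02 in GRflox ventricles (95% interval -0.20 to 0.24). The median of the 6 genes was 0.08 in CardioGRKO and 0.02 in GRflox ventricles, and with a library left out it ranged from -0.04 to 0.17 and from -0.02 to 0.08, so that neither has a settled direction. ATF4 is regulated largely by translation, and its protein was not measured. As a mean of log2 CPM centred per gene, the 15 chaperones and isomerases ranged over libraries from -0.22 to -0.01 in CardioGRKO at ZT12, against 0.02 to 0.34 in CardioGRKO at ZT0. In GRflox ventricles the same mean ranged from -0.36 to -0.08 at ZT12, against -0.04 to 0.40 at ZT0. For the ATF4 arm it ranged from -0.18 to 0.30 at ZT12, against -0.24 to 0.23 at ZT0 in CardioGRKO ventricles, and from 0.06 to 0.32 at ZT12, against -0.34 to -0.10 at ZT0 in GRflox ventricles. The chaperone mean thus lay lower at ZT12 in both genotypes, and the mean of the ATF4 arm lay higher at ZT12 without overlap in GRflox ventricles. There the log2 difference was 2.15 for Chac1, -0.40 for Asns and 0.01 to 0.07 for the other 4 genes. The difference between the arms was not tested.

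**Figure D3:**
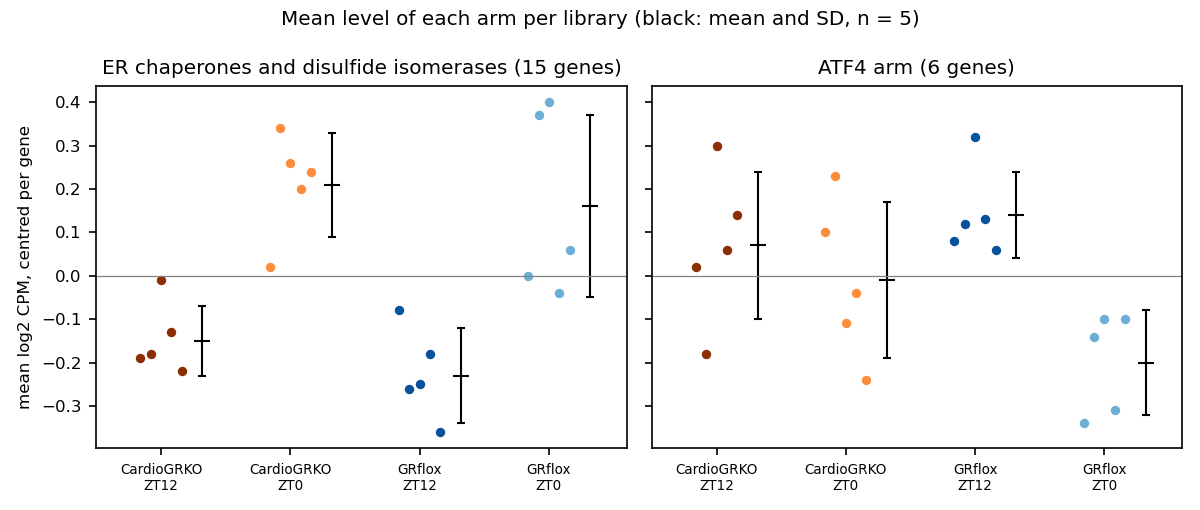
Mean over genes of log2 CPM, centred per gene on its mean over all 20 libraries (vertical axis), for the 15 ER chaperones and disulfide isomerases (left) and the 6 genes of the ATF4 arm (right), 1 point per library; black marks give the mean and SD of 5 libraries. The chaperone mean is below 0 in all 10 ZT12 libraries, while the ATF4 arm ranges from -0.24 to 0.30 over the CardioGRKO libraries of both times. In GRflox ventricles the ATF4 arm ranges from 0.06 to 0.32 at ZT12 and from -0.34 to -0.10 at ZT0.

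Marker genes of other cells moved with time as well. The 6 endothelial markers summed to between 885 and 1040 CPM in CardioGRKO ventricles at ZT12, against 1100 to 1240 CPM at ZT0, and to between 1020 and 1100 CPM in GRflox ventricles at ZT12, against 1260 to 1410 CPM at ZT0. Of the 6, 3 fell at ZT12 in CardioGRKO and 4 in GRflox ventricles, where 4.75% and 9.17% of all genes were lower, none rose, and none was at 0 in any library. Kdr, which encodes the VEGF receptor VEGFR2, fell by 0.67 log2 units in CardioGRKO and by 0.78 in GRflox ventricles (SE 0.10 each), and Pecam1 fell by 0.20 and 0.17. The part of endothelial cells in the chaperone difference was not tested. B and plasma cells, which hold much ER, were near 0: their 6 markers, Derl3 among them, summed to between 1.21 and 3.46 CPM in the 20 libraries, and Cd79a fell by 1.20 log2 units at ZT12 in CardioGRKO and by 1.11 in GRflox ventricles. Ms4a1 was at 0 in 1 library and the J chain gene in 2. The 6 fibroblast markers had no call by time in CardioGRKO ventricles and 2 that fell in GRflox ventricles, Col3a1 (-0.63) and Col1a1 (-0.25). Other markers rose at ZT12. In GRflox ventricles 1 of 6 cardiomyocyte markers, Ttn (0.64), and 1 of 6 macrophage markers, Cd68 (0.32), rose, where 8.13% of all genes did. Of 2 tested adipocyte markers, Cidec rose there by 1.64, at group means of at most 0.645 CPM. In CardioGRKO ventricles 1 of 6 pericyte and smooth muscle markers rose, Myh11 (0.41), where 4.42% of all genes did. These 4 lists had no called fall by time. Of 10 heat shock and cold-inducible genes, Cirbp, an RNA-binding protein induced by cooling, rose at ZT12 in both genotypes (0.67 and 0.57 log2 units), and the other 9 passed no test by time or genotype.

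Between the genotypes, P4hb was the member with the smallest adjusted p at both times. P4hb encodes the classic protein disulfide isomerase, which is also the beta subunit of collagen prolyl 4-hydroxylase. It had 464, 408, 457, 482 and 446 CPM in CardioGRKO ventricles at ZT12, against 302, 286, 280, 278 and 267 CPM in GRflox ventricles. At ZT0 it had 455, 477, 418, 415 and 434 CPM in CardioGRKO ventricles, against 272, 290, 271, 266 and 277 CPM in GRflox ventricles. Every CardioGRKO library exceeded every GRflox library, and P4hb rose by 0.68 log2 units, or 1.6-fold, at each time (SE 0.05, adjusted p = 4.77e-10 at ZT12 and 1.13e-09 at ZT0). The other 14 chaperones and isomerases passed no genotype test. Their log2 differences ran from -0.12 to 0.25 at ZT12 and from -0.19 to 0.13 at ZT0. The value of 0.25 belonged to Hsp90b1 (SE 0.09, adjusted p = 0.0587). For Hspa5 the difference between genotypes was 0.01 log2 units at ZT12 (95% interval -0.17 to 0.19) and -0.05 at ZT0 (95% interval -0.23 to 0.13).

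In all, 5 of the 31 tested members were called between genotypes at ZT12 (3 higher, 2 lower), where 21.1% of all genes were called, 10.4% higher and 10.7% lower. At ZT0 4 were called (3 higher, 1 lower), where 14.7% of all genes were called, 7.36% higher and 7.35% lower. These shares are near the background, so the count says nothing particular about the members. The 2 genotype comparisons share no library with each other in their group means, but each shares its libraries with the time comparisons. All of them use the spread estimated from all 20 libraries. P4hb, Ddit3 and Ppp1r15a were higher in CardioGRKO ventricles and Herpud1 was lower at both times, where 5.4% and 5.38% of all genes were higher and lower at both. Without replicate 1 of CardioGRKO at ZT0, 2 members were called at ZT0, P4hb and Ppp1r15a.

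**Figure D4:**
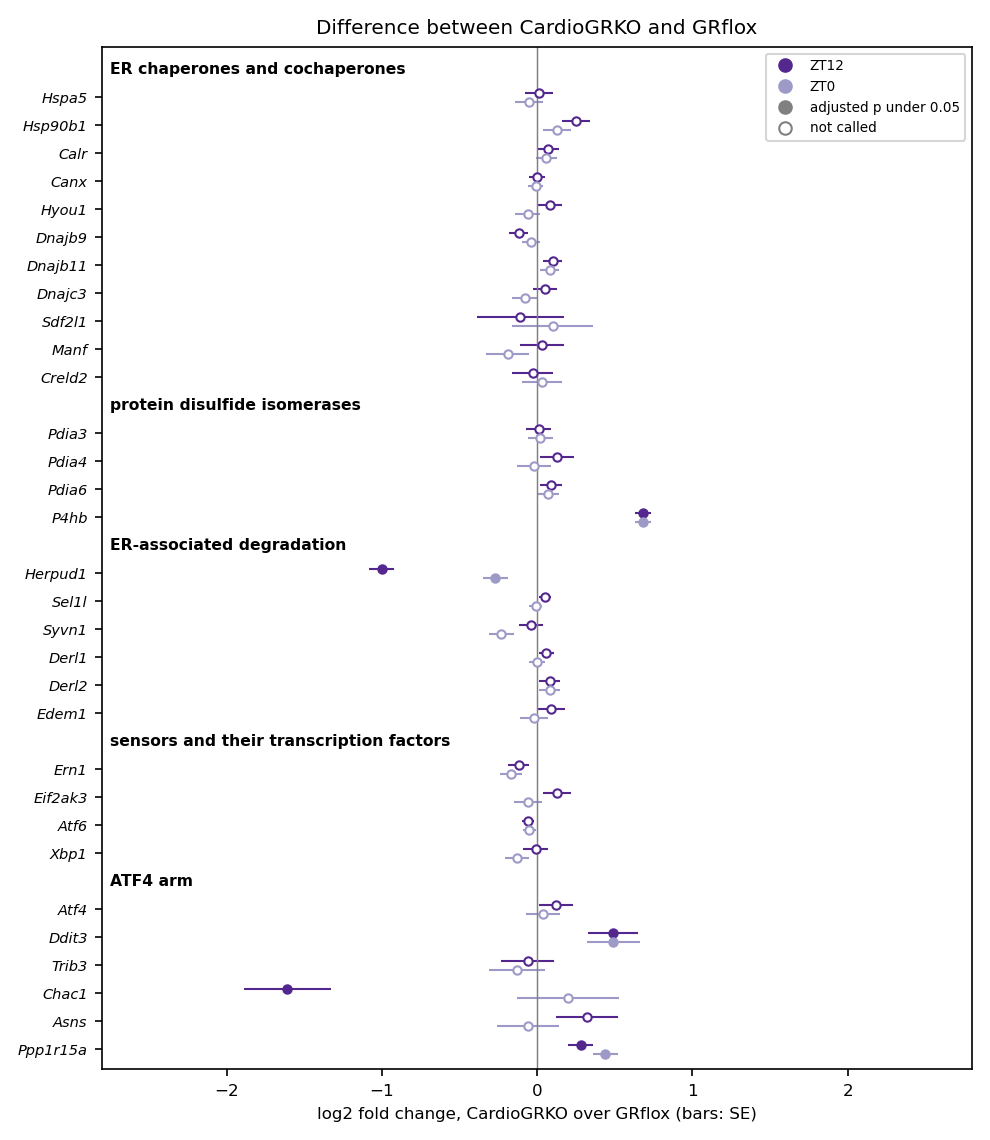
Log2 fold change of CardioGRKO over GRflox for the 31 tested members (horizontal axis), at ZT12 (dark, upper point of each pair) and ZT0 (light); bars are standard errors and filled points have an edgeR adjusted p under 0.05. P4hb lies at 0.68 at both times, Herpud1 at -1.0 at ZT12 and -0.27 at ZT0, and Chac1 at -1.61 at ZT12, while the other chaperones and isomerases lie between -0.19 and 0.25.

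Herpud1 was the member whose time difference depended on genotype. It had 196, 230, 186, 210 and 218 CPM in CardioGRKO ventricles at ZT12, against 150, 187, 176, 164 and 163 CPM in CardioGRKO ventricles at ZT0. In GRflox ventricles it had 373, 427, 469, 361 and 448 CPM at ZT12, against 197, 215, 226, 174 and 204 CPM at ZT0. The GRflox libraries at ZT12 stood above all other libraries, and the highest of the other groups was 230 CPM. Herpud1 rose at ZT12 by 0.30 log2 units in CardioGRKO (SE 0.08, adjusted p = 0.0154) and by 1.03, or 2.04-fold, in GRflox ventricles (SE 0.08, adjusted p = 1.32e-09), where 3.06% of all genes rose in both. The difference of these time effects was -0.73 log2 units (SE 0.11, 95% interval -0.95 to -0.51, adjusted p = 0.00232). Herpud1 was the only 1 of the 31 tested members called by the interaction test, where 0.186% of all genes were called. Between genotypes it fell by 1.0 log2 unit in CardioGRKO ventricles at ZT12 (SE 0.08, adjusted p = 1.98e-09) and by 0.27 at ZT0 (SE 0.08, adjusted p = 0.0217). At ZT0 the groups overlapped, and the call was lost in 5 of 26 alternatives, each with 1 library left out. Without the shallowest of these libraries the log2 difference was -0.23 (adjusted p = 0.0709). Herpud1 thus went the opposite way to the chaperones with time.

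Of the other 5 tested genes of ER-associated degradation, Syvn1 alone passed a test. Syvn1, the ubiquitin ligase HRD1, averaged 50.9 ± 4.27 CPM at ZT12 and 63.6 ± 8.68 CPM at ZT0 in GRflox ventricles and fell by 0.32 log2 units (SE 0.08, adjusted p = 0.00925). In CardioGRKO ventricles its time difference was -0.13 (SE 0.08, adjusted p = 0.395), and its interaction value of 0.19 (SE 0.12) was not called (adjusted p = 0.901). Sel1l, the partner of HRD1, Derl1 and Derl2, channel subunits, and Edem1, a mannosidase-like protein that sorts glycoproteins for degradation, passed no test. Their log2 differences by time and by genotype lay between -0.13 and 0.09.

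**Figure D5:**
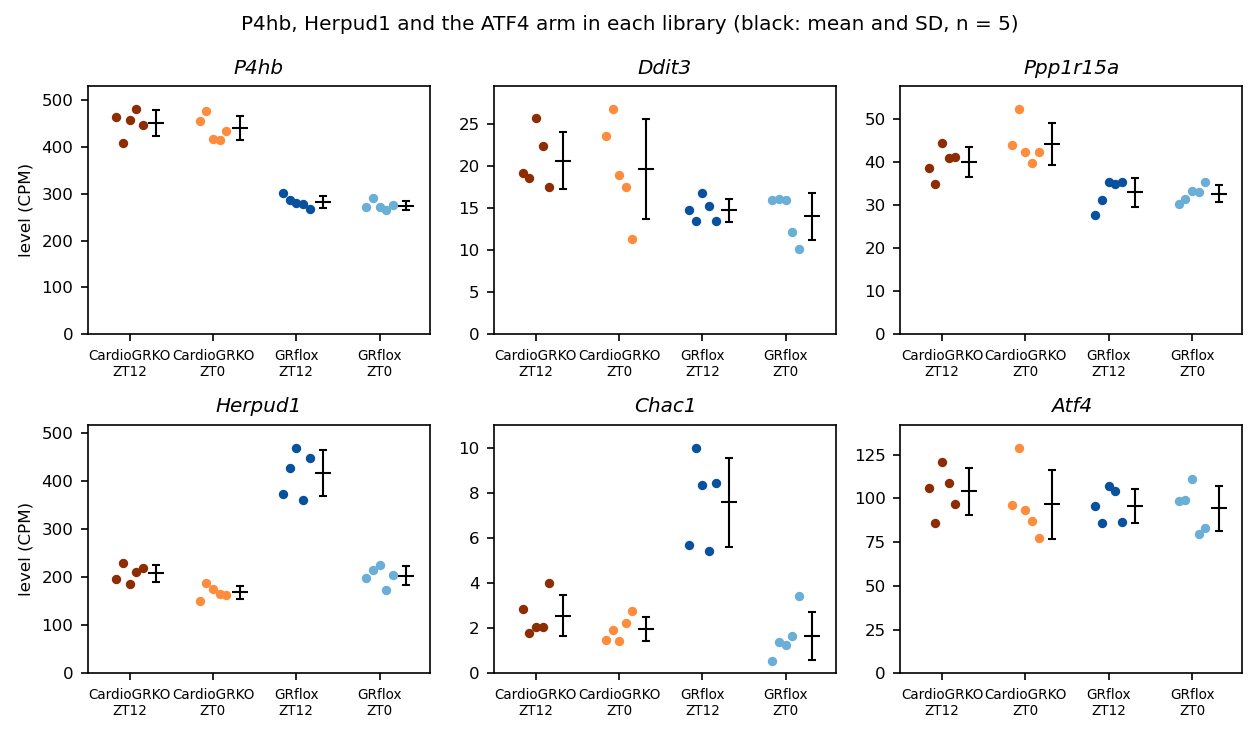
Levels of P4hb, Herpud1 and 4 genes of the ATF4 arm in CPM (vertical axes, from 0) in each of the 20 libraries, by group; black marks give the mean and SD of 5 libraries. P4hb separates by genotype at both times, Herpud1 and Chac1 stand highest in GRflox ventricles at ZT12 (at least 361 and 5.4 CPM), and Atf4 overlaps between all groups.

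Chac1 was the member with the largest changes in the ATF4 arm, at low counts of 9 to 283 reads per library. It had 2.83, 1.78, 2.07, 2.07 and 4.0 CPM in CardioGRKO ventricles at ZT12, against 1.48, 1.94, 1.45, 2.21 and 2.74 CPM in CardioGRKO ventricles at ZT0. In GRflox ventricles it had 5.69, 10, 8.33, 5.4 and 8.42 CPM at ZT12, against 0.561, 1.37, 1.26, 1.64 and 3.41 CPM at ZT0. GRflox libraries at ZT12 lay above all others, and the other 3 groups overlapped. Chac1 rose by 2.15 log2 units, or 4.43-fold, at ZT12 in GRflox ventricles (SE 0.29, adjusted p = 9.33e-06), and its time difference in CardioGRKO ventricles was 0.34 (SE 0.32, adjusted p = 0.588). Between genotypes at ZT12 it fell by 1.61 log2 units in CardioGRKO ventricles, a 3.05-fold lower level (SE 0.28, adjusted p = 0.000138). The difference of the time effects was -1.81 log2 units (SE 0.43, 95% interval -2.65 to -0.97) and was not called by edgeR (adjusted p = 0.105). It was called with DESeq2 (adjusted p = 0.0465), and without replicate 5 of GRflox at ZT0, the highest Chac1 library of that group, it was -2.33 (adjusted p = 0.00285).

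Ppp1r15a had 38.6, 35.0, 44.5, 41.1 and 41.2 CPM in CardioGRKO ventricles at ZT12, against 27.8, 31.3, 35.5, 35.0 and 35.5 CPM in GRflox ventricles. At ZT0 it had 44.0, 52.5, 42.4, 39.8 and 42.3 CPM in CardioGRKO ventricles, against 30.3, 31.4, 33.3, 33.1 and 35.4 CPM in GRflox ventricles. The genotypes did not overlap at ZT0 and met at 35.0 to 35.5 CPM at ZT12, and Ppp1r15a rose by 0.28 log2 units at ZT12 (SE 0.08, adjusted p = 0.0116) and by 0.44 at ZT0 (SE 0.08, adjusted p = 0.000443). Ddit3 had 19.1, 18.5, 25.7, 22.4 and 17.5 CPM in CardioGRKO ventricles at ZT12, against 14.8, 13.4, 16.8, 15.2 and 13.5 CPM in GRflox ventricles. At ZT0 it had 23.5, 26.8, 18.9, 17.5 and 11.3 CPM in CardioGRKO ventricles, against 15.9, 16.1, 16.0, 12.1 and 10.1 CPM in GRflox ventricles. The groups did not overlap at ZT12 and overlapped at ZT0 through the lowest CardioGRKO library. Ddit3 rose by 0.49 log2 units at each time (SE 0.16 at ZT12, adjusted p = 0.0332; SE 0.17 at ZT0, adjusted p = 0.0488), close to the threshold, and DESeq2 called neither. The call at ZT0 was lost in 16 of 26 alternatives, and without replicate 2 of CardioGRKO at ZT0 the difference was 0.32 (adjusted p = 0.219). The call at ZT12 was lost in 6 of the 26. The annotated span of Ddit3 overlaps Mbd6 and Mars1, and that of Ppp1r15a overlaps Tulp2. Among the members called by time, Hspa5 (Rabepk), Pdia3 (Catsper2), Pdia4 (Mir704), Pdia6 (Atp6v1c2), Dnajc3 (Gm4678) and Syvn1 (Mir6988 and Mrpl49) overlap neighbours as well. How the counting treated strand is not stated in the sources, so reads of such neighbours cannot be told apart from those of the members.

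Atf4, Trib3 and Asns passed no test between genotypes. Atf4 averaged 104 ± 13.3 CPM in CardioGRKO and 95.7 ± 9.69 CPM in GRflox ventricles at ZT12, a log2 difference of 0.12 (95% interval -0.11 to 0.34). At ZT0 it averaged 96.6 ± 19.6 CPM in CardioGRKO and 94.2 ± 12.9 CPM in GRflox ventricles, a difference of 0.04 (95% interval -0.18 to 0.26). The log2 differences of Trib3 were -0.06 (SE 0.17) at ZT12 and -0.13 (SE 0.18) at ZT0, and those of Asns were 0.32 (SE 0.20) and -0.06 (SE 0.20). The median of the ATF4 arm between genotypes was 0.20 at ZT12 and 0.12 at ZT0. It was 0.12 at ZT12 without replicate 3 of CardioGRKO at ZT12. At ZT0 it was 0.03 without replicate 1 of GRflox and 0.06 without replicate 2 of CardioGRKO, and it reached 0.19 without replicate 5 of GRflox or replicate 3 of CardioGRKO. The median of the chaperones and isomerases was 0.05 at ZT12 and 0.02 at ZT0, and with a library left out it ranged from 0.02 to 0.10 and from -0.02 to 0.09. The 6 cardiomyocyte markers, against which these genotype values stand, summed to between 76000 and 89400 CPM in CardioGRKO and between 91800 and 96300 CPM in GRflox ventricles at ZT12. At ZT0 they summed to between 75800 and 82800 CPM in CardioGRKO and between 85700 and 91000 CPM in GRflox ventricles. Of the 6, 5 fell in CardioGRKO ventricles at ZT12 and 2 at ZT0, where 10.7% and 7.35% of all genes were lower, and none was at 0 in any library. Endothelial markers also fell between genotypes (2 of 6 at ZT12, 3 of 6 at ZT0), as did pericyte and smooth muscle markers (2 of 6 at ZT12, 3 of 6 at ZT0), while no macrophage marker was called. Of 5 skeletal muscle markers 3 were tested, of which 1 rose and 1 fell at ZT12 and 2 rose at ZT0. Acta1, the skeletal muscle actin, which stressed cardiomyocytes also express, rose by 1.90 log2 units at ZT12 and by 1.80 at ZT0, and Ckm, the muscle creatine kinase, fell by 0.18 at ZT12 (adjusted p = 0.00693). The part of cell composition in the genotype differences was not tested.

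Of 42 further targets of ATF4 and CHOP, 40 were tested. Between genotypes 4 rose and 5 fell in CardioGRKO ventricles at ZT12, and 4 rose and 2 fell at ZT0. These shares are near those of all genes called, 21.1% at ZT12 and 14.7% at ZT0, so the counts say nothing particular about these targets. Gdf15, a stress cytokine, had 7.1, 1.09, 7.13, 5.65 and 4.0 CPM in CardioGRKO ventricles at ZT12, against 0.403, 0.837, 0.706, 0.52 and 0.522 CPM in GRflox ventricles, without overlap. It rose by 3.02 log2 units at ZT12 (SE 0.50, adjusted p = 8.39e-05) and by 3.38 at ZT0 (SE 0.49, adjusted p = 2.96e-05). Mthfd2, a mitochondrial enzyme of the folate cycle, rose by 1.49 log2 units at ZT12 (adjusted p = 0.000396) and by 1.0 at ZT0 (adjusted p = 0.0174). Gpt2, a mitochondrial alanine aminotransferase, fell by 0.76 and 0.51, and Ddit4, an inhibitor of mTORC1 that is also a known glucocorticoid target, fell by 0.98 at ZT0 (adjusted p = 0.00496). Cebpb, a transcription factor, fell by 1.12 at ZT12 in CardioGRKO ventricles (adjusted p = 0.00117), and in GRflox ventricles it rose by 1.55 at ZT12 over ZT0 (adjusted p = 6.12e-05). By time, 1 of the 40 rose and 1 fell in CardioGRKO ventricles, and 6 rose and 1 fell in GRflox ventricles, where 9.17% and 17.3% of all genes were called. Slc1a5, a glutamine transporter, rose by 0.83 log2 units in each genotype. Of 10 immediate early genes, Zfp36, which encodes an mRNA-destabilising protein, fell in CardioGRKO ventricles by 0.82 log2 units at ZT12 and by 0.48 at ZT0, and the other 9 passed no genotype test.

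Other parts of the ER machinery were read in the same time comparisons, in which 9.17% of all genes were called in CardioGRKO and 17.3% in GRflox ventricles. At these list sizes most of the counts are near that background, and nothing particular to a list is read from them. Of 24 other folding enzymes and cochaperones, 1 fell and 1 rose at ZT12 in CardioGRKO ventricles, and 2 fell and 1 rose in GRflox ventricles, with medians of -0.06 and -0.04. Serpinh1, the collagen chaperone HSP47, fell by 0.48 log2 units at ZT12 in GRflox ventricles (adjusted p = 0.0134), and Fkbp10, a collagen-folding isomerase, rose by 0.31 in CardioGRKO and by 0.24 in GRflox ventricles. Of 18 genes of protein entry into the ER, 2 fell in CardioGRKO ventricles, and 4 fell and 1 rose in GRflox ventricles. Of these, Spcs3, a signal peptidase subunit, fell by 0.24 and 0.22. Of 19 other genes of ER-associated degradation, 1 rose in CardioGRKO ventricles, and 5 rose and 1 fell in GRflox ventricles. Of 21 other sensor and transmission genes, 2 fell in CardioGRKO and 3 in GRflox ventricles. Creb3l1, a membrane-bound transcription factor of the ATF6 type, had 9.48, 8.6, 9.2, 10.2 and 9.21 CPM in CardioGRKO ventricles at ZT12, against 20.9, 23.3, 27.0, 25.4 and 23.4 CPM at ZT0. It fell by 1.37 log2 units in CardioGRKO (SE 0.08, adjusted p = 5.02e-11) and by 1.33 in GRflox ventricles (SE 0.08, adjusted p = 3.09e-11), where Xbp1 fell by 0.45 and 0.56. Traf2, an adaptor of IRE1, fell by 0.36 and 0.41.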

How the data were processed

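Per the labels' protocols, poly(A)-enriched libraries of left ventricular tissue were read as pairs of 75 bases. The authors deposited raw read counts for each gene. The submitters' processing notes name STAR 2.5.1, featureCounts of Subread 1.5.1, DESeq2 1.38.3 and mm10. They give no strand setting, rule for multimapping reads or annotation release (not given in the sources used here).

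Lines of a gene at several loci (369 genes) were summed by Entrez identifier. All 20 libraries entered a fit of group means in edgeR 4.0.16 (R 4.3.3), tested by quasi-likelihood, with TMM factors of 0.961 to 1.040. Of the genes, 14007 passed filterByExpr (min.count 10, min.total.count 15), with a common biological coefficient of variation of 8.78%. P-values were adjusted by Benjamini-Hochberg over all these genes in each comparison, with a threshold of 0.05. Standard errors are the log2 fold change over the square root of F, and 95% intervals are 1.96 standard errors. CPM use TMM-scaled library sizes, with 2 as the prior count on the log2 scale. Levels per kb use exon lengths of GENCODE M21. The code was tested on simulated counts with known changes. In the simulation of time in CardioGRKO (13914 genes), 50 genes were changed at each simulated fold. Changes of 1.25-fold were called the right way in 38% and of 1.5-fold in 66% of changed genes. In the data 1284 genes were called in this comparison. The adjustment depends on how many genes change, so these shares are not the power of the real comparison.

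The members and lists were chosen with earlier results of these data known. All 32 members and Nr3c1 may be named, and of each other list up to 4 called genes per comparison, by smallest p. Alternatives were RLE factors, DESeq2 1.42.0, no filter, thinning to the shallowest total, only the groups compared, a replicate block and leaving out each library. Figures used matplotlib 3.10.9.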

Additional observations from a re-analysis of the deposited data

Results flagged for a closer look

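The difference between the time effects of Herpud1, CardioGRKO minus GRflox, was -0.73 log2 units and passed the interaction test, which drew it out for a closer look. Of 128 sets of 5 values (32 members in 4 groups), 5 held a library far from the other 4 by Dixon's test, and chance gives about 1 in 20. Replicate 3 of CardioGRKO at ZT12 was the highest of its group for Hsp90b1 at 486 CPM, with the next at 397, and for Dnajb11 at 62.8 CPM, with the next at 56.4. Replicate 1 of CardioGRKO at ZT0, the shallowest library, was the lowest for Hsp90b1 at 427 CPM, with the next at 507. Replicate 1 of GRflox at ZT12 was the highest for Creld2 at 11.3 CPM, with the next at 9.75. Replicate 5 of CardioGRKO at ZT0 was the lowest for Asns at 1.24 CPM, with the next at 2.82.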

How the results depend on the processing

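Of 39 calls on members, 26 held under every alternative run, 13 were lost under at least 1, and none reversed its sign. Those lost at least once were Herpud1 and Ddit3 at ZT0, Ddit3 and Ppp1r15a at ZT12, Hsp90b1, Canx, Dnajc3, Sdf2l1, Creld2, Pdia4 and Herpud1 by time in CardioGRKO, and Canx and Creld2 by time in GRflox; beyond fewer libraries or reads, the cause was not tested. Of 116 uncalled values, 7 were called in at least 1 alternative. With all libraries thinned to 5854462 reads, the genes called were 1940 (2952 unthinned) between genotypes at ZT12, 1365 (2060) at ZT0, 755 (1284) by time in CardioGRKO and 1515 (2423) by time in GRflox. The interaction test called 26 genes, 71 with DESeq2, and 16 to 33 with a library left out. Members called by it were 1, 2 with DESeq2 and 1 to 2 with a library left out. With the replicate block it called 2 members, and Chac1 was -1.92 (adjusted p = 0.0204). Deviations of same-numbered libraries correlated at -0.272 to 0.234 over 20 pairs, 6 over 0.1, and 6 libraries correlated best with their own number. Between genotypes the correlations ran from 0.01 to 0.234 at ZT12 and from -0.048 to 0.17 at ZT0. By time they ran from -0.272 to 0.062 in CardioGRKO and from -0.061 to 0.144 in GRflox ventricles. The replicate block called more genes in every comparison. The labels name no pairs, so the main fit has none, and what the numbers mark was not tested. With a library left out, members called ranged from 2 to 4 between genotypes at ZT0 and from 8 to 14 by time in CardioGRKO.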
